A study of Populus tomentosa with 9 samples.

Results

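The genes described here encode protein kinases and receptor kinases of poplar. They are the 143 genes, of 41624 in the deposited table of FPKM values, whose deposited domain description contains the words "Protein kinase" and no EF-hand wording. A description exists only for the 2976 genes that the authors had listed as different between a transgenic line and wild type in at least 1 of 6 comparisons, so every kinase gene below had already been chosen for such a difference. The description also splits them into 43 genes with leucine-rich repeats, 39 with lectin wording and no leucine-rich repeat, and 61 with neither. Most leucine-rich repeat genes have lectin wording as well. It is a concanavalin A-like signature alone in 20 of them and a malectin domain in 7, and 16 have none. The first 2 classes therefore do not set receptors without lectin wording against receptors with it. The EF-hand wording removed 7 genes, which are the calcium-dependent protein kinase type.

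Transcripts were sequenced from cultured cells of the poplar Populus tomentosa, grown in suspension, 5 days after subculturing. An overexpression line and an antisense line were set against wild type, and each of these 3 lines was exposed to 10 mM H2O2 for 3 h, to 1 mM ASA for 3 h, or kept as a control. H2O2 is a reactive oxygen species that is both an oxidant and a signalling molecule, and the labels do not spell out ASA. Each of the 9 conditions has 1 library and no replicate. The labels name neither the gene that the constructs target nor their promoters, so the level of that gene could not be used to check the lines. Each genotype appears in the labels as 1 line.

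Protein kinases transfer phosphate from ATP to other proteins. Plant receptor kinases join an intracellular kinase domain, through a membrane span, to an extracellular part that binds a ligand. Leucine-rich repeats often bind peptides or steroids, while lectin and malectin domains are sugar-binding folds, and malectin-type receptors in Arabidopsis monitor the cell wall. Intracellular kinases such as MAP kinases and calcium-sensor-activated kinases relay the signal, and protein phosphatases reverse the phosphorylation. Production of reactive oxygen species at the cell surface is a well known early step in receptor kinase signalling.

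Read totals recovered from the FPKM values ranged from 17102469 to 19629543 per library, and 22584 to 23263 genes per library reached 1 FPKM. FPKM is the number of fragments scaled to transcript length and to sequencing depth, so levels of different genes can be compared on it. In the labels the extraction text mentions stems of Arabidopsis, against poplar suspension cells under organism and source. The labels name no cell type. Of the green-tissue markers searched by description 2 genes had an entry, which were summed to 6.70 to 47.3 FPKM per library. Since genes that the authors did not list have no description, this search cannot show how far such markers were expressed. In the antisense line, the difference between the libraries labelled H2O2 and ASA had the opposite sign to that in wild type for 82.6% of the 23350 genes whose mean reached 1 FPKM, so those are called the antisense libraries labelled H2O2 and ASA throughout. Counts of limma calls and median differences over treatments are given with and without them. Sign counts and single-gene differences over lines include them.

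The mean over the 9 libraries reached 1 FPKM for all 143 kinase genes. Their means ran from 1.15 to 166 FPKM with a median of 17.3 FPKM, beside a median of 11.4 FPKM over all 23350 genes. The median was lowest for the leucine-rich repeat genes, at 9.86 FPKM, followed by 18.2 FPKM for the lectin genes and 24.3 FPKM for the others. A gene was covered by 3 to 8196 reads per library with a median of 723, and only 1 of 1287 values rested on fewer than 4 reads. Between its highest and its lowest library a kinase gene spanned 1.05 to 4.70 on the log2(FPKM + 1) scale, with a median of 1.81, against a median of 1.02 for all genes. That span was not independent of how the genes were chosen.

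The highest gene was POPTR_0010s10380, which has a kinase domain and no other named domain, with 179.6 (H2O2), 167 (ASA) and 216 FPKM (control) in the overexpression line, 141 (labelled H2O2), 225 (labelled ASA) and 118 FPKM (control) in the antisense line, and 197 (H2O2), 154 (ASA) and 92.7 FPKM (control) in wild type. It was lowest in the wild type control and highest in the antisense library labelled ASA. Among lectin genes POPTR_0006s14380, whose only lectin wording is a concanavalin A-like fold signature, had the highest mean with 117 (H2O2), 122 (ASA) and 157 FPKM (control) in the overexpression line, 154 (labelled H2O2), 68.8 (labelled ASA) and 111 FPKM (control) in the antisense line, and 98.9 (H2O2), 162 (ASA) and 127 FPKM (control) in wild type. Its lowest value was in the antisense library labelled ASA. POPTR_0015s09830 led the leucine-rich repeat genes, with 32.7 (H2O2), 34.8 (ASA) and 61.7 FPKM (control) in the overexpression line, 112 (labelled H2O2), 77.6 (labelled ASA) and 105 FPKM (control) in the antisense line, and 67.5 (H2O2), 104 (ASA) and 96.2 FPKM (control) in wild type. All 3 overexpression libraries of that gene lay below the other 6.

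The highest and lowest values of the kinase genes were spread unevenly over libraries. The wild type ASA library held the highest value of 41 of the 143 genes, or of 7.67% of all genes, and the antisense library labelled ASA that of 24, or of 21.4% of all genes. The antisense library labelled H2O2 was highest for 19 and the wild type control for 16, beside 6.77% and 9.33% of all genes. The lowest value fell in the antisense library labelled ASA for 39 kinase genes, in overexpression H2O2 for 37 and in overexpression ASA for 28, beside 8.57%, 18.9% and 20.6% of all genes. The comparisons between lines that chose the kinase genes use the same values, so these counts are a description. Lectin genes made up 18 of the 41 that were highest in wild type ASA, and leucine-rich repeat genes made up 11 of the 24 that were highest in the antisense library labelled ASA.

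**Figure D1:**
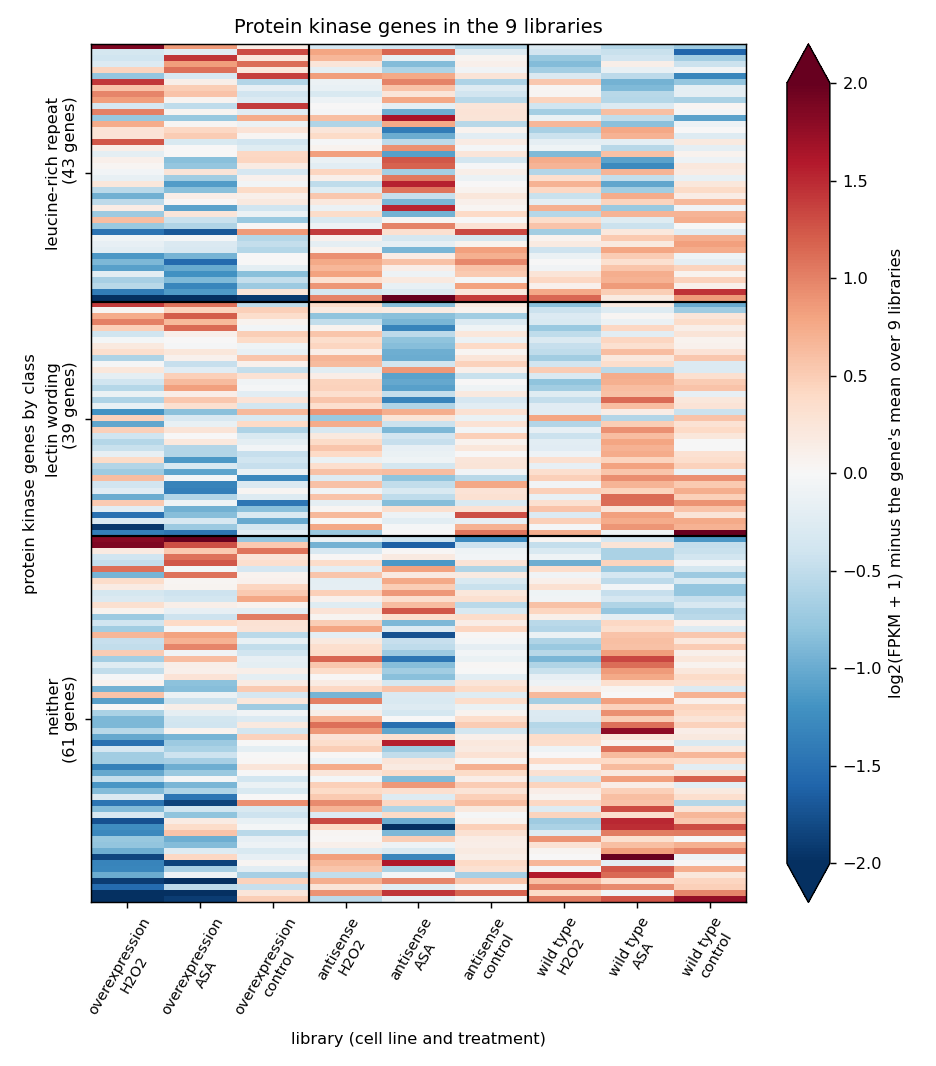
Each row is 1 of 143 protein kinase genes and each column 1 library, with colour giving log2(FPKM + 1) minus the mean of that gene over the 9 libraries and with genes sorted within each class by the mean difference of overexpression minus wild type. Blue fills most rows of the 61 genes with neither wording in the overexpression H2O2 library, which held the lowest value of 25 of them (18.9% of all genes), while red marks the wild type ASA library, which held the highest value of 17 (7.67% of all genes).

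In the overexpression line more kinase genes were lower than higher relative to wild type, most of all with ASA. With ASA 12 genes were at least 2-fold higher and 54 at least 2-fold lower in the overexpression than in the wild type library, where fold was taken from log2(FPKM + 1) and the higher value of the pair had to reach 1 FPKM. Over all genes so compared, 5.46% were higher and 8.46% lower. With H2O2 11 kinase genes were higher and 31 lower, beside 4.33% and 8.28% of all genes, and in controls 15 were higher and 22 lower, beside 6.17% and 4.77%. The median difference over kinase genes was -0.58 with ASA, -0.26 with H2O2 and -0.21 in controls. After division by size factors 12 were higher and 53 lower with ASA, 12 and 23 with H2O2, and 12 and 27 in controls. The medians were then -0.56, -0.18 and -0.30, so the order of H2O2 and controls depended on the scaling. These comparisons chose the genes, so the counts are a description and nothing is read from the background. No test applies to 1 library against 1, and in a bulk library fewer cells of a kind and less RNA per cell cannot be told apart.

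The genes with neither wording held most of the low values with ASA and H2O2, and not in controls. Of these 61 genes, 30 were at least 2-fold lower and 5 higher in overexpression than in wild type with ASA, 21 were lower and 3 higher with H2O2, and 9 were lower and 7 higher in controls, where the lectin genes gave 7 lower and 2 higher and the leucine-rich repeat genes 6 in each direction. The lectin genes gave 14 lower and 1 higher with ASA and 4 in each direction with H2O2. The leucine-rich repeat genes gave 10 lower and 6 higher with ASA. The sign was the same in all 3 treatments for 18 genes higher and 54 genes lower in overexpression, where 24.1% and 21.8% of all genes were so.

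In the antisense line the direction differed between the treatment labels. Whether the treated antisense libraries carry each other's label was not tested, and if they do, each is set here against a wild type library of another treatment. The library labelled ASA had 25 kinase genes at least 2-fold higher and 57 lower than wild type ASA, beside 6.74% and 8.06% of all genes, and a median of -0.77. Over all tested genes the median was 0.22 in this comparison, and after division by size factors the kinase counts became 24 higher and 70 lower. The library labelled H2O2 had 29 higher and 8 lower than wild type H2O2, beside 4.58% and 3.78%, and a median of 0.41. The antisense control differed least from the wild type control, with 8 higher and 6 lower, beside 2.39% and 2.15%, and a median of -0.02. Scaled by size factors, those control counts were 7 higher and 8 lower.

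The classes parted in the antisense library labelled ASA, although most leucine-rich repeat genes carry lectin wording too. Of the leucine-rich repeat genes 16 were at least 2-fold higher and 10 lower than in wild type ASA, with a median of 0.10. Of the lectin genes 1 was higher and 19 were lower, with a median of -0.99. Of the other kinase genes 8 were higher and 28 lower, with a median of -0.71. In the library labelled H2O2 all classes had more genes higher than lower, with 8 and 3 leucine-rich repeat genes, 9 and 2 lectin genes, and 12 and 3 of the others.

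**Figure D2:**
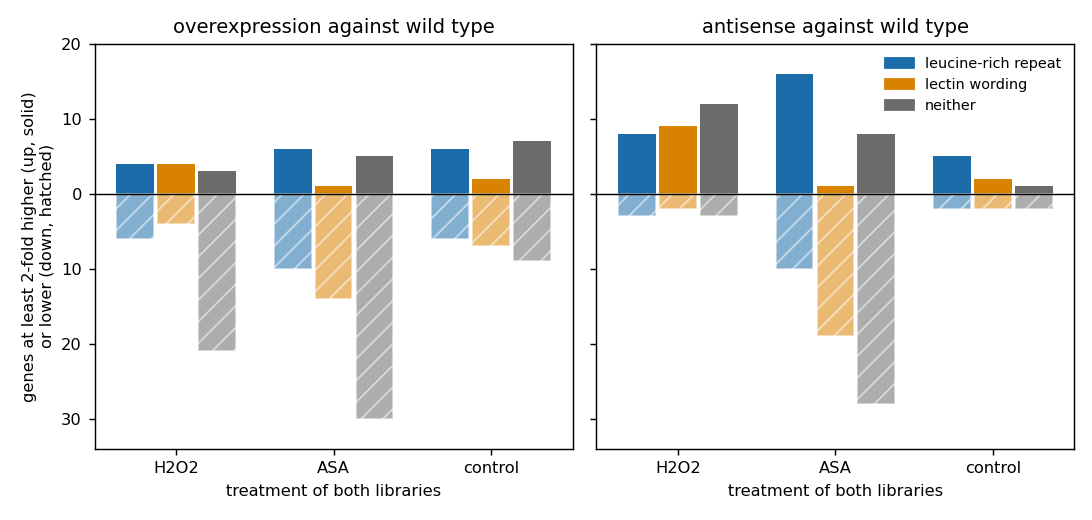
Bars give the number of protein kinase genes at least 2-fold higher (up, solid) or lower (down, hatched) in the overexpression line (left) or the antisense line (right) than in wild type under the same treatment, by class. The longest bars point down, with 30 genes of the neither class lower in overexpression ASA and 28 lower in the antisense library labelled ASA.

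The authors' deposited table listed 96 of the kinase genes in 1 comparison, 32 in 2, 9 in 3 and 5 in 4. POPTR_0019s03480 was in all 6 of the authors' deposited tables. In the authors' deposited table for overexpression against wild type, 8 kinase genes were listed as higher and 22 as lower with H2O2, beside 1.02% and 1.46% of all 41624 genes. With ASA the authors' deposited table lists 9 higher and 39 lower (1.12% and 1.82%), and in controls 10 higher and 19 lower (0.728% and 1.33%). For antisense against wild type the authors' deposited table lists 16 higher and 4 lower in the libraries labelled H2O2 (1.05% and 0.541%). In those labelled ASA the authors' deposited table has 25 higher and 54 lower (0.735% and 2.61%), and in controls 2 higher and 5 lower (0.171% and 0.425%). Being listed was the condition for having a description, so these counts support nothing. By the largest fold listed for each gene, the one nearest the listing threshold was POPTR_0015s09730, for which the authors' deposited table gives a log2 fold of -1.04 for overexpression ASA over wild type ASA. The farthest was POPTR_0010s05300, at -5.56 in the same authors' deposited table. Genes just outside the threshold have no description and could not be members.

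Among receptor kinases with leucine-rich repeats, the widest difference was that of POPTR_0010s05300. It had 0.265 (H2O2), 0.129 (ASA) and 0.698 FPKM (control) in the overexpression line, 11.7 (labelled H2O2), 28.3 (labelled ASA) and 15.7 FPKM (control) in the antisense line, and 13.2 (H2O2), 6.22 (ASA) and 10.6 FPKM (control) in wild type. The 3 overexpression libraries were all below 1 FPKM, on 15, 7 and 40 reads for H2O2, ASA and control, and all 6 other libraries were above 6 FPKM, so the groups did not overlap. The overexpression minus wild type difference averaged -2.98 ± 0.44 (SD over 3 treatments), and the read ratio to wild type was 0.0201 (exact 95% interval 0.0112 to 0.0334) with H2O2 and 0.0661 (exact 95% interval 0.0467 to 0.091) in controls. Intervals of read ratios cover counting error only.

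POPTR_0002s02140 went the other way in the same line. This leucine-rich repeat kinase had 5.49 (H2O2), 2.19 (ASA) and 0.966 FPKM (control) in the overexpression line, 0.405 (labelled H2O2), 0.348 (labelled ASA) and 0.208 FPKM (control) in the antisense line, and 0.459 (H2O2), 0.191 (ASA) and 0.0775 FPKM (control) in wild type. It was below 1 FPKM in all 6 libraries outside the overexpression line and highest in overexpression H2O2. Its overexpression minus wild type difference averaged 1.48 ± 0.65 (SD over 3 treatments). The values outside the overexpression line rested on few reads, with 12 in the antisense control and 29 (H2O2), 12 (ASA) and 5 (control) in wild type. With a pseudocount of 0.1 in place of 1 the average was 2.96 for POPTR_0002s02140, -4.57 for POPTR_0010s05300 and -3.45 for the lectin gene POPTR_0001s05250.

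Both lines were lower than wild type for POPTR_0001s11460 and POPTR_0002s10700. POPTR_0001s11460, which carries a malectin domain as well, had 0.363 (H2O2), 0.631 (ASA) and 3.24 FPKM (control) in the overexpression line, 1.81 (labelled H2O2), 1.95 (labelled ASA) and 3.13 FPKM (control) in the antisense line, and 5.08 (H2O2), 4.07 (ASA) and 8.81 FPKM (control) in wild type. All 3 wild type libraries lay above the other 6, and the difference averaged -1.67 ± 0.48 (SD over 3 treatments) for overexpression and -1.05 ± 0.24 (SD over 3 treatments) for antisense. POPTR_0002s10700, named LRR XI-23 in the file, had 8.24 (H2O2), 6.99 (ASA) and 9.54 FPKM (control) in the overexpression line, 17.2 (labelled H2O2), 15.8 (labelled ASA) and 13.3 FPKM (control) in the antisense line, and 18.7 (H2O2), 22.7 (ASA) and 19.3 FPKM (control) in wild type. Here too wild type was above all other libraries and overexpression below all others.

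Higher values in the antisense line were found for POPTR_0015s13380 and POPTR_0012s09230, both with leucine-rich repeats. POPTR_0015s13380 had 0.909 (H2O2), 0.906 (ASA) and 4.37 FPKM (control) in the overexpression line, 3.87 (labelled H2O2), 8.98 (labelled ASA) and 2.85 FPKM (control) in the antisense line, and 1.94 (H2O2), 1.28 (ASA) and 0.528 FPKM (control) in wild type, and its antisense minus wild type difference averaged 1.40 ± 0.70 (SD over 3 treatments). POPTR_0012s09230 had 1.54 (H2O2), 1.19 (ASA) and 11.8 FPKM (control) in the overexpression line, 17.6 (labelled H2O2), 7.82 (labelled ASA) and 16.7 FPKM (control) in the antisense line, and 3.36 (H2O2), 7.21 (ASA) and 5.05 FPKM (control) in wild type. The antisense libraries lay above those of wild type, that labelled ASA by a margin that was lost after division by size factors, and the overexpression values with H2O2 and ASA were the lowest of the 9.

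POPTR_0003s14970 and POPTR_0003s14980, neighbours in their identifiers, were lower in all 3 overexpression libraries than in the other 6, for POPTR_0003s14970 only without scaling by size factors. POPTR_0003s14980 had 4.27 (H2O2), 2.13 (ASA) and 3.65 FPKM (control) in the overexpression line, 13.3 (labelled H2O2), 5.94 (labelled ASA) and 12.4 FPKM (control) in the antisense line, and 7.21 (H2O2), 12.9 (ASA) and 7.28 FPKM (control) in wild type. The overexpression minus wild type difference averaged -1.21 ± 0.82 (SD over 3 treatments) for POPTR_0003s14980 and -1.10 ± 0.76 (SD over 3 treatments) for POPTR_0003s14970. How reads were divided between similar gene copies is not given in the sources used here, so the values of close pairs are uncertain. POPTR_0003s14970 was chosen for the shared pattern after its values were seen.

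Malectin domains were present in 13 genes, 7 with leucine-rich repeats and 6 without. Their summed FPKM was 189 (H2O2), 309 (ASA) and 334 (control) in the overexpression line, 354 (labelled H2O2), 147 (labelled ASA) and 258 (control) in the antisense line, and 162 (H2O2), 339.9 (ASA) and 314 (control) in wild type. The sum was lowest in the antisense library labelled ASA and in wild type H2O2, and highest in the antisense library labelled H2O2 and in wild type ASA. In the antisense line 8 of the 13 were at least 2-fold higher and 1 lower than wild type in the libraries labelled H2O2, and 2 were higher and 7 lower in those labelled ASA. In overexpression 1 was higher and 1 lower with H2O2, 0 and 1 with ASA, and 3 and 1 in controls. Counts against wild type in this and the later domain groups are a description. The shares over all genes are those given above for the same pairs of libraries.

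The most abundant malectin gene was POPTR_0006s11050, with 48.6 (H2O2), 79.3 (ASA) and 110.2 FPKM (control) in the overexpression line, 119.9 (labelled H2O2), 37.02 (labelled ASA) and 88.2 FPKM (control) in the antisense line, and 45.5 (H2O2), 87.02 (ASA) and 108 FPKM (control) in wild type. POPTR_0001s41620 followed with 40.5 (H2O2), 83.95 (ASA) and 51.5 FPKM (control) in the overexpression line, 73.7 (labelled H2O2), 25.9 (labelled ASA) and 54.3 FPKM (control) in the antisense line, and 30.4 (H2O2), 88.8 (ASA) and 77.3 FPKM (control) in wild type. Both were lowest in the antisense library labelled ASA, and both had a lower value with H2O2 than with ASA in the overexpression line and in wild type. In POPTR_0010s06270, a malectin gene with leucine-rich repeats, the values were 5.92 (H2O2), 8.38 (ASA) and 29.5 FPKM (control) in the overexpression line, 19.9 (labelled H2O2), 18.9 (labelled ASA) and 13.1 FPKM (control) in the antisense line, and 8.61 (H2O2), 7.18 (ASA) and 3.75 FPKM (control) in wild type. There the overexpression control was highest, and wild type control lowest.

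POPTR_0008s18150, with the same domains, had 3.81 (H2O2), 4.25 (ASA) and 14.2 FPKM (control) in the overexpression line, 9.60 (labelled H2O2), 12.7 (labelled ASA) and 4.14 FPKM (control) in the antisense line, and 3.71 (H2O2), 3.51 (ASA) and 1.04 FPKM (control) in wild type. Its wild type libraries all lay below the other 6, and the difference averaged 1.05 ± 1.60 (SD over 3 treatments) for overexpression and 1.37 ± 0.22 (SD over 3 treatments) for antisense. For POPTR_0010s06270 the antisense difference averaged 1.33 ± 0.23 (SD over 3 treatments).

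The 8 bulb-type lectin genes are the receptor kinases related to those that control self-recognition of pollen in Brassica. Their summed FPKM was 67.04 (H2O2), 64.9 (ASA) and 77.4 (control) in the overexpression line, 132 (labelled H2O2), 101 (labelled ASA) and 152 (control) in the antisense line, and 107 (H2O2), 162 (ASA) and 142 (control) in wild type. All 3 sums of the overexpression line were below all 6 of the other lines. In overexpression 0 were at least 2-fold higher than wild type, and 4 were lower with H2O2, 7 with ASA and 3 in controls. In antisense 0 were higher and 1 lower in the libraries labelled H2O2, 0 and 1 in those labelled ASA, and 1 and 0 in controls.

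POPTR_0001s05250 had the lowest mean of the bulb-type genes, 2.88 FPKM, and differed most. It had 0.127 (H2O2), 0.0661 (ASA) and 1.48 FPKM (control) in the overexpression line, 0.737 (labelled H2O2), 1.90 (labelled ASA) and 5.05 FPKM (control) in the antisense line, and 3.76 (H2O2), 1.71 (ASA) and 11.1 FPKM (control) in wild type. The overexpression libraries with H2O2 and ASA rested on 6 and 3 reads, and the control of each line was above both of its treated libraries. The overexpression minus wild type difference averaged -1.90 ± 0.49 (SD over 3 treatments). POPTR_0011s12930, which also carries the S-locus glycoprotein domain, had 3.74 (H2O2), 9.92 (ASA) and 13.1 FPKM (control) in the overexpression line, 29.95 (labelled H2O2), 16.8 (labelled ASA) and 28.3 FPKM (control) in the antisense line, and 16.8 (H2O2), 32.3 (ASA) and 28.2 FPKM (control) in wild type. Its 3 overexpression libraries were below the other 6, and that difference averaged -1.52 ± 0.43 (SD over 3 treatments).

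POPTR_0001s43280 had 3.24 (H2O2), 5.63 (ASA) and 8.69 FPKM (control) in the overexpression line, 17.6 (labelled H2O2), 10.1 (labelled ASA) and 28.03 FPKM (control) in the antisense line, and 8.90 (H2O2), 20.01 (ASA) and 13.3 FPKM (control) in wild type. Overexpression was again below all other libraries. The 5 genes with S-locus wording, all of which are among the bulb-type genes, summed to 45.9 (H2O2), 53.7 (ASA) and 57.3 (control) in the overexpression line, 101 (labelled H2O2), 76.2 (labelled ASA) and 103 (control) in the antisense line, and 76.9 (H2O2), 122 (ASA) and 100.4 (control) in wild type FPKM. POPTR_0011s14950 is the 1 legume-type lectin kinase, and had 6.94 (H2O2), 6.66 (ASA) and 3.77 FPKM (control) in the overexpression line, 8.58 (labelled H2O2), 7.26 (labelled ASA) and 7.58 FPKM (control) in the antisense line, and 12.4 (H2O2), 15.02 (ASA) and 15.3 FPKM (control) in wild type. Both lines were lower than wild type in every treatment for that gene, with an average of -1.19 ± 0.52 (SD over 3 treatments) for overexpression and -0.79 ± 0.27 (SD over 3 treatments) for antisense.

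Wall-associated kinases bind pectin in the cell wall. POPTR_0008s06030, which has the galacturonan-binding domain of that family, had 107 (H2O2), 149 (ASA) and 81.6 FPKM (control) in the overexpression line, 36.01 (labelled H2O2), 35.3 (labelled ASA) and 38.96 FPKM (control) in the antisense line, and 52.3 (H2O2), 65.1 (ASA) and 75.5 FPKM (control) in wild type. Overexpression lay above all other libraries and antisense below all others, so the 3 lines did not overlap. After scaling by size factors the overexpression control no longer lay above every wild type library. The difference from wild type averaged 0.77 ± 0.57 (SD over 3 treatments) for overexpression and -0.78 ± 0.22 (SD over 3 treatments) for antisense. The other two genes with wall-associated or EGF-like wording, POPTR_0005s15270 and POPTR_0010s11390, did not share this order.

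Gnk2 domains mark the cysteine-rich receptor kinases, and were found in 5 genes. Their summed FPKM was 116 (H2O2), 101 (ASA) and 57.2 (control) in the overexpression line, 90.2 (labelled H2O2), 44.7 (labelled ASA) and 77.2 (control) in the antisense line, and 76.04 (H2O2), 145 (ASA) and 117 (control) in wild type. In the overexpression line 3 of 5 were at least 2-fold higher with H2O2 than in the control and 3 with ASA, beside 5.65% and 4.87% of all genes. In wild type 0 and 1 were, beside 3.46% and 2.75%. In the antisense library labelled ASA 5 of 5 were at least 2-fold lower than in wild type ASA, beside 8.06%. These 5 genes were chosen for differences between lines, so the counts are a description. POPTR_0017s09180 had 15.97 (H2O2), 12.7 (ASA) and 3.54 FPKM (control) in the overexpression line, 7.26 (labelled H2O2), 2.58 (labelled ASA) and 6.28 FPKM (control) in the antisense line, and 2.61 (H2O2), 6.27 (ASA) and 2.19 FPKM (control) in wild type. It was highest in both treated overexpression libraries. POPTR_0010s05380, named CRK3 in the file, was the most abundant, with 44.7 (H2O2), 41.3 (ASA) and 31.7 FPKM (control) in the overexpression line, 38.5 (labelled H2O2), 17.3 (labelled ASA) and 36.2 FPKM (control) in the antisense line, and 24.4 (H2O2), 54.2 (ASA) and 42.4 FPKM (control) in wild type. POPTR_0011s03270 had 11.1 (H2O2), 6.64 (ASA) and 2.21 FPKM (control) in the overexpression line, 5.59 (labelled H2O2), 3.51 (labelled ASA) and 4.37 FPKM (control) in the antisense line, and 9.996 (H2O2), 13.9 (ASA) and 13.8 FPKM (control) in wild type. Its antisense minus wild type difference averaged -1.31 ± 0.51 (SD over 3 treatments), and its overexpression control was the lowest of the 9.

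POPTR_0005s28080 is the 1 gene with a LysM domain, the domain that binds chitin in the receptor kinase CERK1 of Arabidopsis. It had 18.96 (H2O2), 8.04 (ASA) and 22.9 FPKM (control) in the overexpression line, 21.4 (labelled H2O2), 17.9 (labelled ASA) and 27.4 FPKM (control) in the antisense line, and 31.5 (H2O2), 30.97 (ASA) and 37.8 FPKM (control) in wild type. The 3 wild type libraries lay above the other 6, and overexpression ASA was lowest. Among genes with a universal stress protein (UspA) domain, 3 in all, the summed FPKM was 73.5 (H2O2), 51.99 (ASA) and 48.1 (control) in the overexpression line, 53.3 (labelled H2O2), 83.6 (labelled ASA) and 66.1 (control) in the antisense line, and 93.1 (H2O2), 59.5 (ASA) and 80.8 (control) in wild type. The order of treatments in this sum was the reverse of the malectin sum in each treated pair of the antisense line and of wild type. One of the 3 genes, which also has a U-box domain, had the malectin order. It had 19.1 (labelled H2O2) and 11.5 FPKM (labelled ASA) in the antisense line, and 13.3 (H2O2) and 27.0 FPKM (ASA) in wild type.

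The concanavalin A-like signature alone gave 24 genes their lectin class. Of these 4 were at least 2-fold higher and 0 lower in overexpression than in wild type with H2O2, 1 and 6 with ASA, and 2 and 3 in controls. In antisense 4 were higher and 1 lower in the libraries labelled H2O2, and 1 and 14 in those labelled ASA. POPTR_0001s44100 was one with wild type below both transgenic lines, and had 40.9 (H2O2), 54.8 (ASA) and 56.1 FPKM (control) in the overexpression line, 45.8 (labelled H2O2), 44.7 (labelled ASA) and 42.01 FPKM (control) in the antisense line, and 29.5 (H2O2), 33.2 (ASA) and 24.05 FPKM (control) in wild type. Its 6 transgenic libraries did not overlap with the 3 of wild type.

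**Figure D3:**
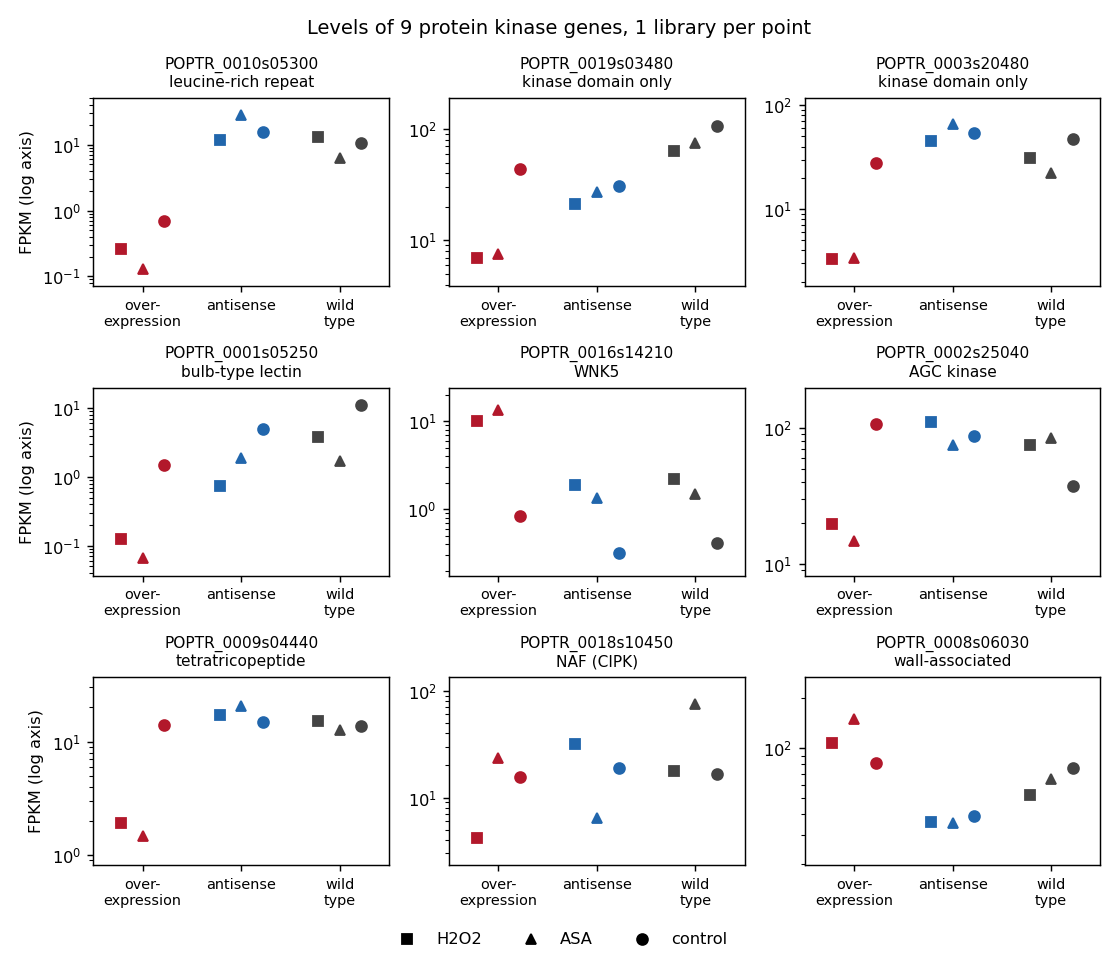
Points give FPKM on a log axis for 9 protein kinase genes, 1 library per point, with colour for the line and shape for the treatment. The 3 overexpression libraries of POPTR_0010s05300 lie below 1 FPKM and the other 6 above 6 FPKM, while in POPTR_0009s04440 both treated overexpression libraries are below 2 FPKM and all others above 12 FPKM.

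Among the intracellular kinases, the NAF domain binds calcineurin B-like calcium sensors and marks CBL-interacting protein kinases (CIPK). The 7 NAF genes summed to 272 (H2O2), 377 (ASA) and 279 (control) in the overexpression line, 384 (labelled H2O2), 247 (labelled ASA) and 384 (control) in the antisense line, and 337 (H2O2), 533 (ASA) and 459.8 (control) in wild type FPKM. In overexpression 0 were at least 2-fold higher than wild type, and 4 were lower with H2O2, 3 with ASA and 2 in controls. In the antisense library labelled ASA 0 were higher and 5 lower, and in that labelled H2O2 1 was higher and 0 lower.

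POPTR_0006s27940 was the most abundant NAF gene, with 155 (H2O2), 170.2 (ASA) and 66.8 FPKM (control) in the overexpression line, 84.8 (labelled H2O2), 28.4 (labelled ASA) and 99.3 FPKM (control) in the antisense line, and 88.2 (H2O2), 145 (ASA) and 142 FPKM (control) in wild type. It was highest in both treated overexpression libraries and lowest in the antisense library labelled ASA. POPTR_0006s06160 had 40.5 (H2O2), 49.3 (ASA) and 82.5 FPKM (control) in the overexpression line, 98.9 (labelled H2O2), 108 (labelled ASA) and 109 FPKM (control) in the antisense line, and 103 (H2O2), 95.5 (ASA) and 99.6 FPKM (control) in wild type. Its 3 overexpression libraries lay below the other 6, which were all within 95.5 to 109 FPKM. POPTR_0018s10450 was among the 5 kinase genes with the widest spread over libraries, with 4.18 (H2O2), 23.6 (ASA) and 15.6 FPKM (control) in the overexpression line, 31.7 (labelled H2O2), 6.50 (labelled ASA) and 19.05 FPKM (control) in the antisense line, and 17.7 (H2O2), 74.2 (ASA) and 16.5 FPKM (control) in wild type. The wild type ASA library stood above all others and overexpression H2O2 below all others.

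POPTR_0006s18710, also a NAF gene, had 5.53 (H2O2), 12.1 (ASA) and 12.8 FPKM (control) in the overexpression line, 21.6 (labelled H2O2), 15.4 (labelled ASA) and 18.5 FPKM (control) in the antisense line, and 36.997 (H2O2), 35.3 (ASA) and 25.4 FPKM (control) in wild type. Wild type was above and overexpression below all other libraries of that gene, and the difference averaged -1.65 ± 0.82 (SD over 3 treatments) for overexpression. POPTR_0001s04790, whose description has calcium/calmodulin-dependent kinase wording without NAF, had 3.72 (H2O2), 7.80 (ASA) and 4.95 FPKM (control) in the overexpression line, 5.68 (labelled H2O2), 8.19 (labelled ASA) and 4.97 FPKM (control) in the antisense line, and 27.3 (H2O2), 19.7 (ASA) and 9.96 FPKM (control) in wild type. The 3 wild type libraries were above the other 6, with an average difference of -1.57 ± 0.90 (SD over 3 treatments) for overexpression and -1.38 ± 0.63 (SD over 3 treatments) for antisense.

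Plant AGC kinases act in auxin transport and growth signalling. The 3 AGC genes summed to 50.3 (H2O2), 61.4 (ASA) and 154 (control) in the overexpression line, 162 (labelled H2O2), 118 (labelled ASA) and 146 (control) in the antisense line, and 125 (H2O2), 185 (ASA) and 129 (control) in wild type FPKM, with both treated overexpression libraries below all others. The median of the 3 genes did not have that order. It was 22.9 FPKM in overexpression ASA and 21.9 FPKM in the antisense library labelled ASA. POPTR_0002s25040 had 19.8 (H2O2), 14.8 (ASA) and 106 FPKM (control) in the overexpression line, 109.5 (labelled H2O2), 75.3 (labelled ASA) and 86.7 FPKM (control) in the antisense line, and 74.8 (H2O2), 83.8 (ASA) and 37.4 FPKM (control) in wild type. The overexpression minus wild type difference was -1.87 with H2O2, -2.42 with ASA and 1.49 in controls, so the sign in treated libraries was opposite to that in controls.

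MAP kinases are the last step of a cascade that links receptors to gene regulation, and 4 genes carry this wording. They summed to 92.98 (H2O2), 96.3 (ASA) and 156 (control) in the overexpression line, 156 (labelled H2O2), 113 (labelled ASA) and 132 (control) in the antisense line, and 125 (H2O2), 212 (ASA) and 114 (control) in wild type FPKM. Each was chosen by its wording and not by the rule for named genes. POPTR_0009s07050 had the highest mean of them, 51.4 FPKM, with 104 FPKM in wild type ASA against 54.5 FPKM in the wild type control. POPTR_0014s08450 had 11.3 (H2O2), 18.03 (ASA) and 13.02 FPKM (control) in the overexpression line, 31.9 (labelled H2O2), 7.86 (labelled ASA) and 13.1 FPKM (control) in the antisense line, and 11.7 (H2O2), 61.8 (ASA) and 18.8 FPKM (control) in wild type. The wild type ASA library was the highest of the 9.

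WNK kinases lack the catalytic lysine at the usual place. POPTR_0016s14210, named WNK5 in the file, had 10.02 (H2O2), 13.5 (ASA) and 0.829 FPKM (control) in the overexpression line, 1.88 (labelled H2O2), 1.35 (labelled ASA) and 0.317 FPKM (control) in the antisense line, and 2.22 (H2O2), 1.49 (ASA) and 0.41 FPKM (control) in wild type. In each line both treated libraries were above the control, and the treated overexpression libraries were above all others. The overexpression minus wild type difference averaged 1.56 ± 1.10 (SD over 3 treatments). POPTR_0008s04050 had 26.2 (H2O2), 17.2 (ASA) and 9.67 FPKM (control) in the overexpression line, 2.87 (labelled H2O2), 1.40 (labelled ASA) and 4.55 FPKM (control) in the antisense line, and 4.32 (H2O2), 7.90 (ASA) and 4.33 FPKM (control) in wild type, with all overexpression libraries above the other 6. POPTR_0005s09800, with a PB1 protein interaction domain, had 19.5 (H2O2), 25.1 (ASA) and 37.03 FPKM (control) in the overexpression line, 13.4 (labelled H2O2), 17.4 (labelled ASA) and 16.02 FPKM (control) in the antisense line, and 13.6 (H2O2), 10.6 (ASA) and 12.3 FPKM (control) in wild type. Overexpression was again above all others.

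Several genes with no named domain beside the kinase domain were lower in the overexpression line. POPTR_0019s03480 had 7.004 (H2O2), 7.54 (ASA) and 43.6 FPKM (control) in the overexpression line, 21.2 (labelled H2O2), 27.3 (labelled ASA) and 31.2 FPKM (control) in the antisense line, and 64.1 (H2O2), 74.4 (ASA) and 106 FPKM (control) in wild type. Wild type lay above both transgenic lines, and the difference averaged -2.48 ± 1.05 (SD over 3 treatments) for overexpression and -1.57 ± 0.16 (SD over 3 treatments) for antisense. POPTR_0003s20480 had 3.28 (H2O2), 3.35 (ASA) and 28.01 FPKM (control) in the overexpression line, 44.8 (labelled H2O2), 65.2 (labelled ASA) and 54.2 FPKM (control) in the antisense line, and 30.9 (H2O2), 22.4 (ASA) and 47.5 FPKM (control) in wild type. Its treated overexpression libraries were below 4 FPKM and all others above 22 FPKM. POPTR_0001s28520, among the 5 kinase genes with the widest spread, had 6.75 (H2O2), 22.9 (ASA) and 16.9 FPKM (control) in the overexpression line, 23.3 (labelled H2O2), 3.24 (labelled ASA) and 24.7 FPKM (control) in the antisense line, and 10.9 (H2O2), 50.3 (ASA) and 44.6 FPKM (control) in wild type. Here the antisense library labelled ASA was lowest, and wild type ASA highest.

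Both treated overexpression libraries together lay below the other 7 libraries for 34 of the 143 kinase genes and above them for 10, where 18.4% and 9.83% of all genes did so. After scaling by size factors the counts were 29 and 11. Among the 34 were 19 of the 61 genes with neither wording, 8 leucine-rich repeat genes and 7 lectin genes. POPTR_0009s04440, a kinase with tetratricopeptide repeats like the brassinosteroid-signalling kinases of Arabidopsis, was one of them and was chosen after its values were seen. It had 1.91 (H2O2), 1.46 (ASA) and 13.98 FPKM (control) in the overexpression line, 17.01 (labelled H2O2), 20.5 (labelled ASA) and 15.004 FPKM (control) in the antisense line, and 15.3 (H2O2), 12.8 (ASA) and 13.7 FPKM (control) in wild type. The other 7 libraries stayed within 12.8 to 20.5 FPKM.

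All 3 overexpression libraries lay below the other 6 for 16 kinase genes and above them for 5, beside 6.23% and 5.02% of all genes. Scaled by size factors the counts were 14 and 4. All antisense libraries were below the rest for POPTR_0008s06030 and above it for POPTR_0018s01840 and POPTR_0019s11460, beside 1.32% and 3.25% of all genes. All wild type libraries lay above the other 6 for 11 genes and below for 2, beside 3.33% and 3.26%. Since these differences chose the genes, nothing is read from the comparison with all genes.

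A few of the 143 genes are not typical protein kinases by their description, and 3 have at most a kinase-like fold and no catalytic kinase wording. POPTR_0001s22800 is described as the regulatory beta subunit of the SNF1-related kinase, an energy sensor, and had 34.4 (H2O2), 116 (ASA) and 61.8 FPKM (control) in the overexpression line, 63.03 (labelled H2O2), 21.3 (labelled ASA) and 58.9 FPKM (control) in the antisense line, and 24.3 (H2O2), 66.3 (ASA) and 46.2 FPKM (control) in wild type. Overexpression ASA was highest. POPTR_0014s09450 is described as a phosphatidylinositol kinase with a ubiquitin domain and POPTR_0018s03950 as an ABC-1 family protein. POPTR_0014s09450 had its highest value in wild type ASA, 90.5 FPKM, against 43.3 FPKM in the wild type control. POPTR_0018s03950 had 7.12 FPKM in overexpression H2O2 against 11.4 FPKM in wild type H2O2. POPTR_0005s23450 is described as the kinase Bud32, which in yeast acts in tRNA modification, and had its highest value in the overexpression control, 47.4 FPKM, against 19.5 FPKM in the wild type control.

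**Figure D4:**
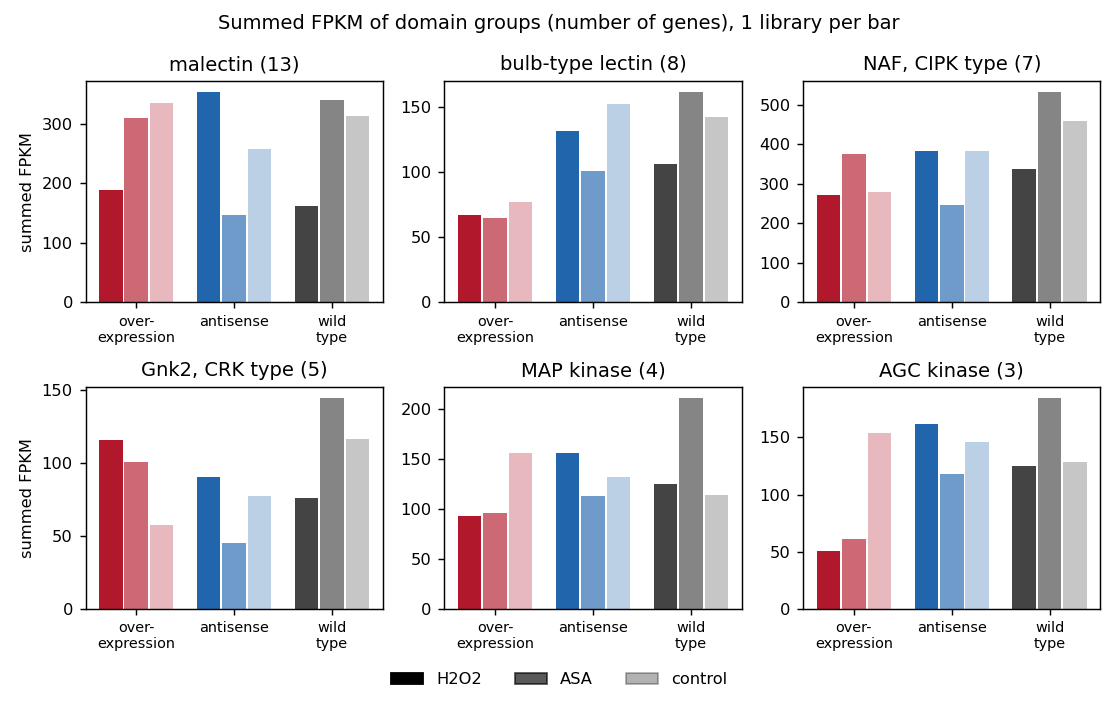
Bars give FPKM summed over the genes of 6 domain groups in each library, with colour for the line and shading for the treatment. The sum of the 8 bulb-type lectin genes was 64.9 to 77.4 in the overexpression line and 107 to 162 in wild type, and the malectin sum was lowest in the antisense library labelled ASA.

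The average differences between treatments over the 3 lines were not used to choose the genes, and they were tested with limma over all 9 libraries. None of the 143 kinase genes passed an adjusted p of 0.05 in any of the 3 treatment contrasts. For H2O2 minus control 9 had an unadjusted p below 0.05, or 6.29%, where 6.57% of all genes did, and limma voom on the recovered reads gave 0 adjusted and 9 unadjusted calls. For ASA minus control limma gave 6 unadjusted calls, or 4.20%, where 5.67% of all genes had one, and voom gave 0 adjusted and 6 unadjusted. For H2O2 minus ASA limma gave 0 unadjusted calls, where 0.36% of all genes had one, and voom gave 0 adjusted and 1 unadjusted. Over all genes limma called 1 for H2O2 minus control (0.00428%), 0 for ASA minus control and 0 for H2O2 minus ASA. The residual of this fit is the scatter of a treatment difference over lines, since no condition was repeated, and each line is 1 culture. Gaps between lines within a treatment, which chose the genes, enter that scatter and can hold down the calls among kinase genes. Nothing is therefore read from their shares beside those of all genes.

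Without the antisense libraries labelled H2O2 and ASA the unadjusted calls among kinase genes were 41 for H2O2 minus control, 20 for ASA minus control and 50 for H2O2 minus ASA. Over all genes 13.6%, 8.86% and 14% had such a p. There were again 0 adjusted calls among kinase genes in each contrast, and the smallest adjusted p was 0.121. With those libraries left out, the treatment differences are no longer balanced against the line comparisons that chose the genes, so nothing is read from these counts beside those of all genes.

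Of the kinase genes 13 were higher and 17 lower with H2O2 than in the control in all 3 lines, beside 15.7% and 14.8% of all genes. With ASA 4 were higher and 11 lower in all 3 lines, beside 11.2% and 13.4%. Agreement of sign rests on the values of single lines, and gaps between lines chose the genes. Nothing is therefore read from these sign counts beside those of all genes. The median over kinase genes was -0.15 for H2O2 minus control and -0.10 for ASA minus control, beside -0.01 and -0.05 over all genes. Without the treated antisense libraries these medians were -0.29 and 0.03, beside -0.02 and -0.11 over all genes, so the sign for ASA changed. Those fits are not balanced against the line comparisons that chose the genes.

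The largest average difference with H2O2 belonged to POPTR_0016s14210 (WNK5). Over lines it was higher with H2O2 than in the control by 1.64 (SE 0.42, limma adjusted p = 0.571) on the log2(FPKM + 1) scale, and with ASA by 1.55 (SE 0.42, limma adjusted p = 0.714). The direction was the same in 3 of 3 lines, and neither difference passed. The bulb-type lectin kinase POPTR_0001s05250 was lower in treated cells in 3 of 3 lines, with a difference of -1.43 (SE 0.31, limma adjusted p = 0.501) for H2O2 and of -1.48 (SE 0.31, limma adjusted p = 0.557) for ASA. Its H2O2 value was the smallest adjusted p of the kinase genes in that contrast.

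Other kinase genes with 1 direction in all 3 lines also missed the threshold. POPTR_0019s03480 had a difference of -1.25 (SE 0.42, limma adjusted p = 0.694) for H2O2 and POPTR_0001s11460 of -0.96 (SE 0.26, limma adjusted p = 0.583). Higher values with H2O2 in every line were found for the leucine-rich repeat kinases POPTR_0016s05210 and POPTR_0002s23470. POPTR_0016s05210 had 14.1 (H2O2), 5.15 (ASA) and 2.76 FPKM (control) in the overexpression line, 4.22 (labelled H2O2), 10.2 (labelled ASA) and 2.68 FPKM (control) in the antisense line, and 7.28 (H2O2), 1.94 (ASA) and 2.31 FPKM (control) in wild type, and its difference was 1.28 (SE 0.49, limma adjusted p = 0.714). Its antisense difference was small beside those of the other two lines. POPTR_0002s23470 had 15.99 (H2O2), 8.84 (ASA) and 6.81 FPKM (control) in the overexpression line, 7.81 (labelled H2O2), 15.3 (labelled ASA) and 5.51 FPKM (control) in the antisense line, and 11.97 (H2O2), 5.37 (ASA) and 5.12 FPKM (control) in wild type, and its difference was 0.88 (SE 0.35, limma adjusted p = 0.732).

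Within single lines and without scaling, the overexpression H2O2 library had the most kinase genes at least 2-fold below its control. After division by size factors the antisense library labelled ASA had the most, with 32 lower against 29 in overexpression H2O2. In the unscaled overexpression line 15 kinase genes were at least 2-fold higher and 35 lower with H2O2 than in the control, beside 5.65% and 9.52% of all genes. With ASA 10 were higher and 25 lower, beside 4.87% and 8.85%. Division by size factors turned this into 19 higher and 22 lower, and turned the median from -0.09 to 0.09. In wild type 8 were higher and 13 lower with H2O2 than in the control, beside 3.46% and 3.21%, which became 4 and 15 after scaling. With ASA 8 were higher and 6 lower in wild type, beside 2.75% and 1.8%.

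In the antisense line the library labelled H2O2 was close to its control, with 5 kinase genes at least 2-fold higher and 1 lower, beside 1.14% and 1.22% of all genes. The library labelled ASA had 17 higher and 27 lower than the antisense control, beside 3.12% and 4.93%. These pairs share libraries with the comparisons that chose the genes, and 1 library per condition gives them no replicate check.

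H2O2 and ASA were set against each other within each line. The median H2O2 minus ASA difference over the 143 kinase genes was -0.10 in overexpression, 0.51 in antisense and -0.44 in wild type, where all genes had 0.09, -0.13 and 0.16. With H2O2 11 kinase genes were at least 2-fold higher and 18 lower than with ASA in overexpression, beside 2.77% and 4.53% of all genes. In antisense 41 were higher and 13 lower, beside 5.37% and 2.05%, and in wild type 13 were higher and 40 lower, beside 2.68% and 4.99%. Lectin genes had the widest gap, with a median of -0.05 in overexpression, 0.74 in antisense and -0.83 in wild type. The same libraries entered the comparisons that chose the genes, so these counts and medians are a description.

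The sign was opposite in antisense and wild type for 132 of the 143 kinase genes. It was at least 2-fold higher with H2O2 in antisense and at least 2-fold lower with H2O2 in wild type for 28 kinase genes, where 3.62% of all genes had that pattern, and the reverse for 9, where 1.11% did. Across the 143 genes, which do not count as replicates, these differences had a Pearson correlation of -0.939 between antisense and wild type, and of 0.542 between overexpression and wild type. Over all genes the values were -0.838 and 0.622. Values that chose the kinase genes enter these differences, so nothing is read from how they compare with all genes. The reversal was thus also found over genes at large, and its cause was not tested.

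Genes with this reversal came from all classes. POPTR_0018s10450, a NAF kinase, was higher with H2O2 than with ASA by 2.12 in antisense and lower by a difference of -2.01 in wild type. For POPTR_0001s28520 the differences were 2.52 in antisense and -2.11 in wild type. Of the 13 malectin genes 9 were at least 2-fold higher with H2O2 than with ASA in antisense and 0 lower, and in wild type 0 were higher and 7 lower. In overexpression 0 were higher and 3 lower.

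**Figure D5:**
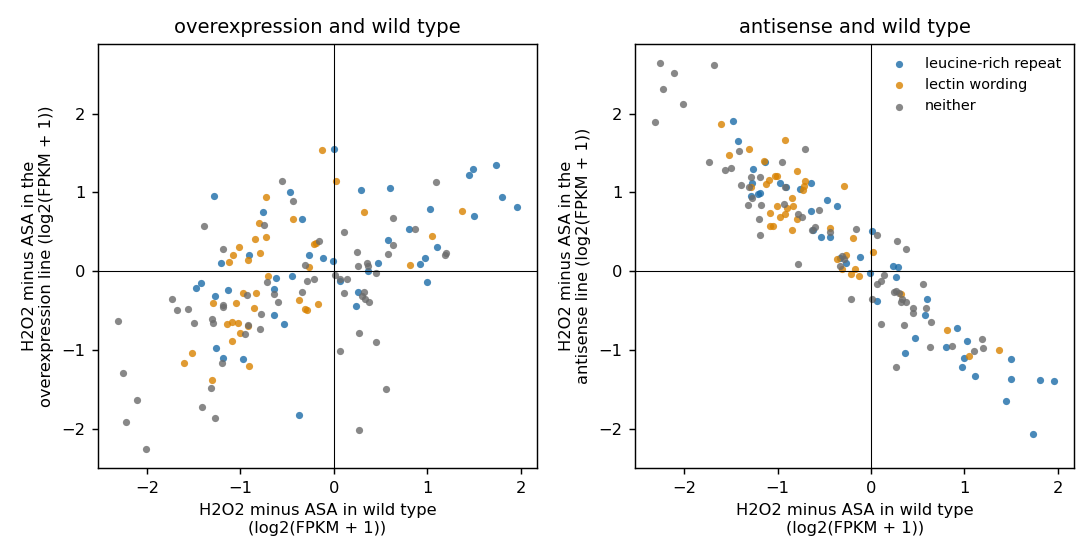
Each point is 1 of 143 protein kinase genes, placed by its H2O2 minus ASA difference in wild type (horizontal) and in the overexpression line (left panel, vertical) or the antisense line (right panel, vertical), both on the log2(FPKM + 1) scale. In the right panel 132 points lie in the quadrants of opposite sign, against 48 in the left panel.

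Other genes of phosphorylation and receptor signalling were taken from words in the same descriptions, and had therefore been listed by the authors as well. None of these 108 genes passed an adjusted p of 0.05 in any treatment contrast with limma or with limma voom. For H2O2 minus control 2 had an unadjusted p below 0.05 with limma and 4 with voom, for ASA minus control 3 and 1, and for H2O2 minus ASA 0 and 0. Over all genes the shares in these contrasts were 6.57%, 5.67% and 0.36% with limma, and 6.74%, 5.53% and 0.25% with voom. Of 11 protein phosphatase 2C genes, which dephosphorylate kinase targets, 3 were at least 2-fold higher and 0 lower in overexpression than in wild type with H2O2, and 1 was higher and 3 were lower with ASA. Of 5 other protein phosphatase genes 1 was higher and 1 lower with H2O2, and 1 was higher and 2 were lower with ASA. Of the 7 EF-hand kinases 0 were higher, and 2 were lower with H2O2 and 4 with ASA. Over all genes 4.33% were higher and 8.28% lower in overexpression than in wild type with H2O2, and 5.46% and 8.46% with ASA. The listed genes had been chosen for such differences, so the counts of these groups and of those below are a description.

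Leucine-rich repeat genes without a kinase domain numbered 30, and those with lectin wording without a kinase domain 32. In overexpression ASA 0 of the 30 were at least 2-fold higher and 8 lower than in wild type, and of the 32 lectin genes 11 were higher and 12 lower. In overexpression H2O2 1 of the 30 was higher and 7 lower, and of the 32 lectin genes 11 were higher and 3 lower. In the antisense library labelled ASA 4 of the 30 were higher and 14 lower, and of the 32 lectin genes 0 were higher and 19 lower. Over all genes 6.74% were higher and 8.06% lower in that comparison. Of 13 two-component genes, the histidine kinase route of hormone signalling, 2 were higher and 3 lower in overexpression ASA, and 3 higher and 1 lower in overexpression H2O2. Of 9 calmodulin-binding genes 0 were higher, and 6 were lower with ASA and 4 with H2O2. The calmodulin-binding genes summed to 103 FPKM in overexpression H2O2 and 144 FPKM in overexpression ASA, against 148 FPKM in wild type H2O2 and 249.7 FPKM in wild type ASA. The 2 genes of the 14-3-3 type, which bind phosphorylated proteins, summed to 96.5 FPKM in overexpression H2O2 against 102 FPKM in wild type H2O2, to 83.8 FPKM in overexpression ASA against 76.4 FPKM in wild type ASA, and to 127 FPKM in the overexpression control against 56.1 FPKM in the wild type control. The 1 gene with wording for a RALF, phytosulfokine or CLE peptide, which are ligands of receptor kinases, had 118 FPKM in overexpression H2O2 against 149 FPKM in wild type H2O2, 163 FPKM in overexpression ASA against 145 FPKM in wild type ASA, and 107 FPKM in the overexpression control against 143 FPKM in the wild type control.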

How the data were processed

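Transcripts were measured by RNA sequencing in 9 libraries, 1 for each combination of 3 cell lines and 3 treatments, grouped by the titles in the labels. The submitters' processing notes name HTSeq 0.6.1, TopHat, TopHat2 2.0.12 and Bowtie2 2.2.3. The step each tool served is not given in the sources used here, nor is the build. FPKM values for 41624 genes were deposited by the authors. The authors also deposited comparison tables that hold, per the file headers, scaled read values per library (a signal of unstated scale), log2 fold changes and q-values. In those deposited tables the smallest absolute log2 fold is 1 and the largest q-value 0.00498. None of the identifiers matched the reference gene table (0 matched), so the text uses the identifiers and the deposited wording.

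Kinase genes and their classes were found by words in the descriptions, joined over the 6 comparison tables. Members, classes and lists were chosen with earlier results of these data known. The lectin kinds and the tetratricopeptide group were added after the descriptions had been read. Whole reads were recovered from the FPKM steps for 100% of the 33158 genes with a value above 0, within a relative tolerance of 1e-07. Of these, 1546 had reads in a single library, which leaves their ratio undetermined.

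Treatment differences were tested with limma 3.58.1 (R 4.3.3) fitted to log2(FPKM + 1) by factors for line and for treatment, with a trended prior and Benjamini-Hochberg adjustment over the 23350 genes whose mean reached 1 FPKM. The fit leaves 4 residual degrees of freedom. This scale understates the change of low genes. The script was tested on simulated data. Pairs of libraries were compared without a test, by the count of genes at least 2-fold apart. Ratios of reads have exact 95% intervals for counting error only. Within each class the text names the genes highest by mean FPKM, those with the largest differences of 1 sign between lines or treatments, and those with the widest spread. Genes outside this rule are named as chosen after their values were seen or stand for their domain group. Alternatives covered the pseudocount, the filter, the scaling, the fold and the libraries left out. Tables were made with Python 3.11.15, pandas 2.3.3 and scipy 1.17.1.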

Additional observations from a re-analysis of the deposited data

Results flagged for a closer look

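The H2O2 minus ASA difference on the log2(FPKM + 1) scale had a median over the 143 kinase genes of 0.51 in the antisense line and of -0.44 in wild type. It was singled out because the direction was opposite in both lines, with 1 library per condition, and the difference between the lines was not tested. The treated libraries of both lines also entered the comparisons that chose the kinase genes, so these medians are a description. Genes listed by the authors, of any kind, had medians of the same signs, 0.21 in antisense (2959 genes) and -0.16 in wild type (2958 genes). The opposed medians are therefore not read as a trait of kinase genes. The same opposition of sign was found for 82.6% of all tested genes.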

How the results depend on the processing

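No paired analysis was possible because each condition has 1 library and the labels carry no replicate numbers, apart from the line factor of the treatment fit, which compares treatments within lines. The count of kinase genes past an adjusted p of 0.05 stayed at 0 in all 3 treatment contrasts with a pseudocount of 0.1, without the filter, with a mean of at least 5 FPKM, with size factors, with voom (chosen after seeing the data), and without both treated antisense libraries. It ranged from 0 to 0 when each library was left out in turn, a design too small for this to show stability. The planned edgeR and DESeq2 fits on recovered reads were not run, and leaving out a library gives no value for a pair of libraries. Counts were also summed over pairs of libraries, where a gene counts once for each pair, so the sums are not numbers of different genes. At 3-fold in place of 2-fold, the sums over treatments were 11 higher and 45 lower for overexpression against wild type (38 and 107 at 2-fold). For antisense they were 18 higher and 33 lower (62 and 71). Treatments within lines summed to 13 higher and 29 lower (63 and 107). No share over all genes is set beside these sums, and nothing is read from them about kinase genes. With 1 library left out in turn, the ASA minus control difference of POPTR_0006s06160 ranged from -0.4247 to 0.0071, with the highest value, of opposite sign to the -0.27 over all libraries, found without the overexpression control. For single genes 44 other values moved by more than their spread and 703 did not. Of the results counted as headlines, 6 moved and 67 did not. Unscaled, the median of all genes was shifted by 0.22 in the antisense library labelled ASA against wild type. It was shifted by 0.10 in the overexpression control against the wild type control. Against the overexpression control the shift was -0.17 in overexpression ASA and -0.12 in overexpression H2O2. For H2O2 minus ASA it was -0.13 in antisense and 0.16 in wild type. Depth limits the 9 values under 20 reads, found in 4 kinase genes, POPTR_0001s05250, POPTR_0002s02140, POPTR_0010s05300 and POPTR_0016s14210.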
